A study of Mus musculus with 200 samples.

Results

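Small nucleolar RNAs and their host genes were examined in single whole mouse embryos, as all rows of the expression tables whose gene symbol begins with *Snhg*, *Snora* or *Snord* followed by a number. There were 115 such rows among 22033, made up of 10 small nucleolar RNA host genes (*Snhg*), 36 H/ACA small nucleolar RNAs (*Snora*) and 69 C/D small nucleolar RNAs (*Snord*). The study compared E11.5 embryos of C57BL6/J (B6) and Castaneus (Cast) mice, 2 inbred strains, by 3SEQ, which sequences the 3′ ends of poly(A)-selected RNA. There were 8 B6xCast F1 embryos (B6 mother, Cast father) and 8 CastxB6 F1 embryos (Cast mother, B6 father), all of them B6/Cast at every autosomal gene. N2 embryos came from the backcross of F1 adults to B6, 89 from a B6 mother and an F1 father and 65 from an F1 mother (of the B6xCast cross) and a B6 father, and each gene of an N2 embryo was therefore B6/B6 or B6/Cast. No embryo was treated, and extra-embryonic material had been removed.

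Small nucleolar RNAs (snoRNAs) guide the chemical modification of ribosomal and spliceosomal RNA in the nucleolus. Box C/D snoRNAs direct 2′-O-methylation and carry the short C and D boxes near their ends, while box H/ACA snoRNAs direct the conversion of uridine to pseudouridine and carry an ACA triplet near the 3′ end. Most are trimmed out of introns of a host gene, which is either a gene for a ribosomal protein or translation factor or a noncoding *Snhg* gene whose exons have no evident protein. A mature snoRNA has no poly(A) tail, so the libraries were not designed to hold it, and a read in a snoRNA row can also come from a host transcript or another polyadenylated RNA that covers the same bases.

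The sequences of the snoRNAs on which the results below turn are given here to show how short the annotated snoRNAs are, as read from the NCBIM37 (mm9) genome at the GENCODE vM1 positions. *Snord104* lies at chr11:106362307-106362376 on the + strand, outside every other gene that GENCODE vM1 places on that strand. *Snora78* lies at chr17:24856621-24856748 on the - strand, inside *Snhg9*. *Snord35a* is at chr7:52381716-52381805 on the - strand in an intron of *Rpl13a*, where *Snord34* at chr7:52381971-52382040 on the - strand overlaps an annotated exon. *Snord15b* at chr7:106628073-106628217 overlaps an annotated exon of *Rps3* on the - strand, and *Snord15a* at chr7:106631295-106631442 lies in an intron of the same gene and strand. *Snord49b* at chr11:62416581-62416652 and *Snord65* at chr11:62418017-62418088 lie on the + strand in introns of the noncoding gene *2410006H16Rik*. *Snord72* is at chr15:5068404-5068484 on the + strand in an intron of *Rpl37*. *Snora61* at chr4:131866155-131866284 and *Snord99* at chr4:131866606-131866679 both overlap annotated exons of *Snhg12* on the + strand. Capitals mark a C box (TGATGA) found in the first 25 bases, a D box (CTGA) in the last 25 bases or, in *Snora* rows, the ACA in the last 12 bases.
Snord104: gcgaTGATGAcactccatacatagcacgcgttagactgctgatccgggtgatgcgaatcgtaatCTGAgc
Snora78: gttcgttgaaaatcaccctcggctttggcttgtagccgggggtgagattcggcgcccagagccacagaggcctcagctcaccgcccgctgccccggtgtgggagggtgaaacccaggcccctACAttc
Snord35a: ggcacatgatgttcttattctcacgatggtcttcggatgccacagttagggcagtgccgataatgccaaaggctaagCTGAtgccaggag
Snord34: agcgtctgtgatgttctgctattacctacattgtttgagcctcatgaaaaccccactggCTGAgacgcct
Snord15b: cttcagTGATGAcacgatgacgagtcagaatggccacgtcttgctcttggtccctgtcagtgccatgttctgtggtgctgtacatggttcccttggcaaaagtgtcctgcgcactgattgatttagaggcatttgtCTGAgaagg
Snord15a: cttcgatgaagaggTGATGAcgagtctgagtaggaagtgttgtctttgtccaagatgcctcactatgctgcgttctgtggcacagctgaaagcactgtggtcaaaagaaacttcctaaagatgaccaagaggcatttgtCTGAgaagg
Snord49b: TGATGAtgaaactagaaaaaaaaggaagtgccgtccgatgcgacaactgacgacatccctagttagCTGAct
Snord65: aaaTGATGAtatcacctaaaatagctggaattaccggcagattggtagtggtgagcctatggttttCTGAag
Snord72: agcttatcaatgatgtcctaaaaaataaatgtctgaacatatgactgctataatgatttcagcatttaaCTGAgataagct
Snora61: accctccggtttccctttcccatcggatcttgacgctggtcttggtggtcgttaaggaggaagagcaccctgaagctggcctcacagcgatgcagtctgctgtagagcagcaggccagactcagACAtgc
Snord99: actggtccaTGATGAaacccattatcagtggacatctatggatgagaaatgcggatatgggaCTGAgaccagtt

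Of the 55 *Snord* rows with an annotated snoRNA position, all 55 held CTGA in their last 25 bases and 33 held TGATGA in their first 25. Among the 14 of these with a mean of at least 5 RPM (reads scaled to 1000000 reads on genes of a library), 9 held both boxes, against 24 of the 41 rows below that level. ACA was found in 30 of the 32 *Snora* rows. *Snord35a* and *Snord35b* were identical at 73.9% of their aligned positions. The pair in *Rps3*, *Snord15a* and *Snord15b*, was identical at 65.6%, and *Snord49a* and *Snord49b* at 70.7%. A motif match describes the letters only and does not show that a mature snoRNA was sequenced.

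The 16 F1 embryos had 15703888 to 38234229 reads on genes and the 154 N2 embryos 245220 to 5370322, with a median of 2297774. One read was worth 0.186 to 4.08 RPM in N2 embryos, so that values of a few RPM rest on few reads. Markers of erythroid cells, liver, heart, neurons, lens and cartilage all had a mean of at least 5 RPM (9 of 9), although *Cryaa* was at 0 in at least 1 N2 embryo, and the summed level of 4 placental trophoblast markers reached at most 0.29 RPM in F1 and 4.48 RPM in N2 embryos, with *Prl3d1* and *Prl2c2* at 0 in every embryo. N2 libraries were pooled by sequencing lane (A to G on flowcell 1, H to N on flowcell 2), and all but 1 lane (M) held embryos of 1 kind of mother. Lanes E and J stood apart for *Snord35b*, as described below, and the results were also computed without them. The lane medians of *Snora44* were also 0 RPM in both lanes. Those of *Snord34* and *Snord15a* were 0.814 and 0.756 RPM in lane E and 0 RPM in lane J. Among F1 embryos, 2 of CastxB6 (embryo 1 of litter 1 and embryo 3 of litter 2) lay together above the other 6 of their cross in 8 of the 30 rows of at least 5 RPM, against 15.6% of genes at that level, and below them in 2 rows, against 7.13%. *Snhg7* had 27.5 and 24 RPM in these 2 embryos and 2.09 to 6.51 RPM in the other 6. *Snord99* had 31.2 and 22.4 RPM against 1.80 to 8.89 RPM, and *Snhg1* 68.6 and 46.6 RPM against 9.31 to 26 RPM.

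Most rows had almost no reads. In N2 embryos 27 of the 115 rows had a mean of at least 5 RPM, against 45.4% of all rows of the table, and the F1 embryos also gave 27. Together these were 30 rows, including all 10 *Snhg* rows, 4 of 36 *Snora* rows and 16 of 69 *Snord* rows. Another 74 rows stayed below 1 RPM in both sets of embryos, and 4 had no read at all. The summed level of all 115 rows was 2737 RPM in F1 and 4209 RPM in N2 embryos.

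*Snord104* had the most reads of any member (RPM here is not divided by the length of a row). It ranged from 336 to 990 RPM in F1 embryos, with a median of 703, and from 242 to 2346 RPM in N2 embryos, with a median of 820. Positions were compared with GENCODE vM1 genes on the same strand only. Of the 3 snoRNA rows that lie in no other such gene, *Snord104* was the 1 row above 5 RPM. Of 53 snoRNA rows that lie in an intron of another gene, 9 reached 5 RPM, and of 31 that overlap an exon, 8 did. *Snord123* had a median of 71.4 RPM in F1 and 51.5 RPM in N2 embryos, but in GENCODE this symbol is a noncoding transcript of 4094 bases rather than a snoRNA of the usual size.

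**Figure D1:**
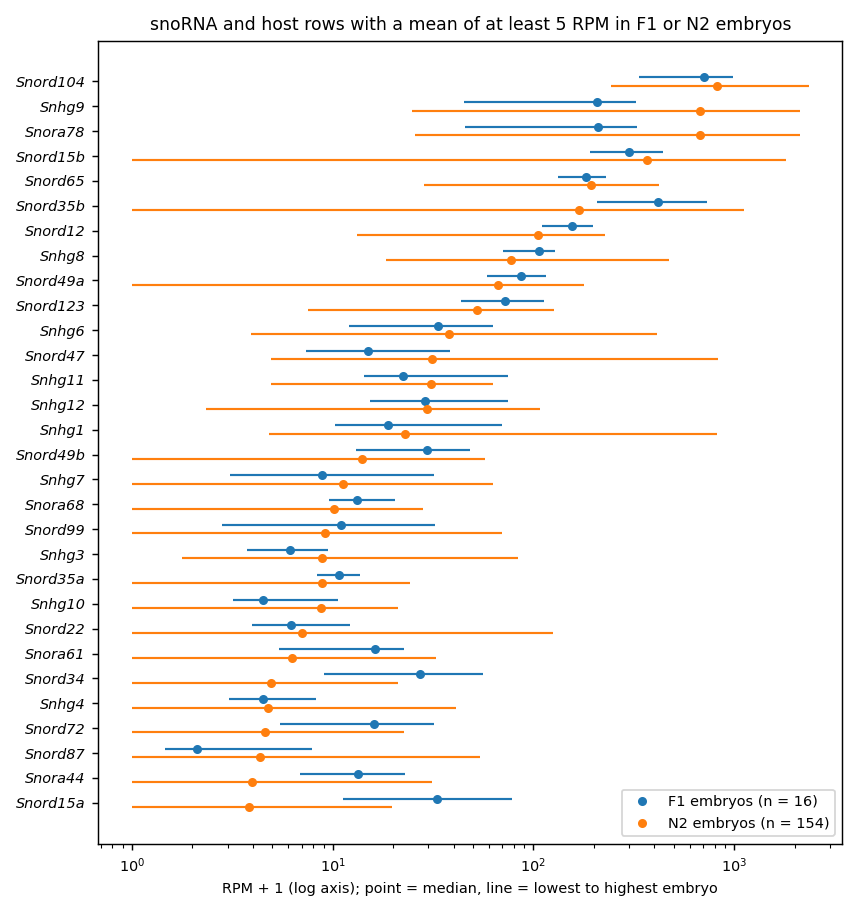
Level of each snoRNA or host row with a mean of at least 5 RPM in F1 or N2 embryos, as RPM + 1 on a log axis. Points are medians and lines run from the lowest to the highest embryo (16 F1 in blue, 154 N2 in orange). *Snord104*, with N2 embryos between 242 and 2346 RPM, is at the top, and several rows reach 0 RPM in single N2 embryos.

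Some rows had nearly equal counts. *Snhg9* and the snoRNA inside it, *Snora78*, had 73793 and 74138 reads summed over F1 embryos, and 230330 and 230893 over N2 embryos. Their counts lay within 2 reads of each other in 78 of 154 N2 embryos. These 2 rows were in effect 1 measurement, and they are counted as 2 members in the tests below. Their reads yielded votes for an allele at a different rate, with 94.1 votes per 100 reads in *Snhg9* and 28.7 in *Snora78* in F1 embryos. Counts alone do not show which reads were held by both rows.

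Other snoRNA rows had fewer reads than the row of their host. *Snord12* had 68416 reads in F1 embryos against 112429 in its host *1500012F01Rik*, a noncoding gene, but its 53800 allele votes were all but a few of the host's 53804. *Snord47* had 0.50 times the reads of *Gas5*, a noncoding host gene of many C/D snoRNAs, in F1 and 0.42 times in N2 embryos.

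By contrast, *Snord15b* had 0.08 times the reads of *Rps3*, a small-subunit protein gene, in F1 and 0.05 times in N2 embryos. The ratio to *Rpl13a*, a large-subunit protein gene, was 0.03 in F1 and 0.006 in N2 embryos for *Snord34*, and 0.01 in both for *Snord35a*. *Snord65* had 0.56 times the reads of *2410006H16Rik* in F1 and 0.66 times in N2 embryos, *Snord49a* 0.26 and 0.25 times, and *Snord49b* 0.10 and 0.06 times. How many of these reads were counted in both rows cannot be read from the tables.

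**Figure D2:**
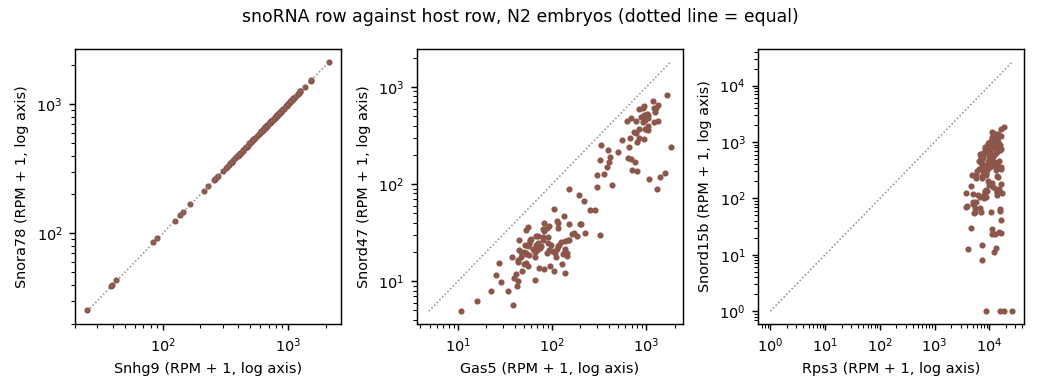
Reads of 3 snoRNA rows against the row of the host gene, each point an N2 embryo (n = 154), both axes as RPM + 1 on log scales, with a dotted line where the rows are equal. *Snora78* lies on the line with *Snhg9*, *Snord47* runs below *Gas5*, and *Snord15b* spreads from 0 to 1814 RPM at *Rps3* levels of 3679 to 26375 RPM.

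Levels in N2 embryos followed the sequencing lane. *Snord35b* had a lane median of 745 RPM in lane C and of 0 RPM in lanes E and J, and it was the 1 gene with a zero lane median among the 5333 genes with an overall median of at least 20 RPM. In the other 12 lanes its median was at least 14.8 RPM. Lane E held 11 embryos of F1 mothers on flowcell 1 and lane J 11 embryos of B6 mothers on flowcell 2, so that these 2 lanes shared neither mother nor flowcell. The median depth of lane J, 577807 reads, was the lowest of the 14 lanes, while that of lane E was 1515285.

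*Snord15b* had a lane median of 12.2 RPM in lane J and 1234 RPM in lane B, a ratio of 101, while its host *Rps3* varied 2.49-fold between lanes. A second set of rows moved the other way. *Snhg1*, host of a cluster of C/D snoRNAs, had lane medians of 9.63 to 29 RPM in lanes A to I, of 114 RPM in lane J and of 318 to 441 RPM in lanes K to N. *Snord22*, which overlaps an exon of *Snhg1*, went from 1.83 RPM in lane A to 61.6 RPM in lane N. *Snord47* rose from 12.5 RPM in lane B to 495 RPM in lane K and its host *Gas5* from 50.9 to 932 RPM, while *Snhg6* went from 10.2 RPM in lane H to 235 RPM in lane K.

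Of the 15 members with a median of at least 20 RPM, 6 had a lane at 0 or a ratio of highest to lowest lane above 13.6, which is the 95th percentile over genes. The median gene differed 2.91-fold between its highest and lowest lane. Some members were steady by that measure, among them *Snhg11* with a ratio of 1.80, *Snord104* with 2.33 and *Snhg8* with 2.55. Lanes account for 80.7% of the variance of the ranks of *Snhg1* over embryos and 18.2% for *Snhg11*, against a median of 59.7% over all genes tested.

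**Figure D3:**
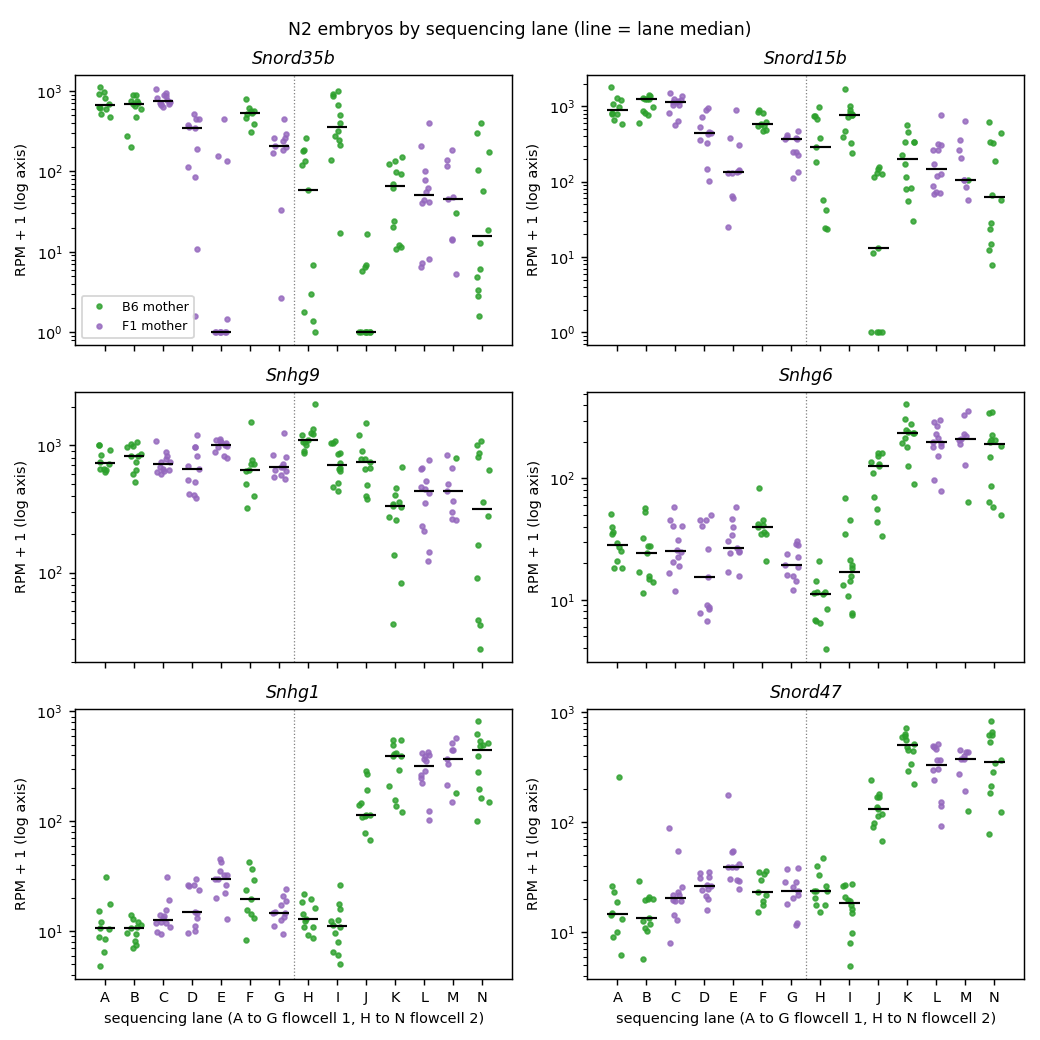
RPM + 1 on a log axis for 6 rows by sequencing lane, each point an N2 embryo coloured by its mother, with a line at the lane median and a dotted line between the flowcells. *Snord35b* has a median of 0 RPM in lanes E and J, while *Snhg1*, *Snhg6* and *Snord47* are highest in lanes K to N.

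The share of votes from the B6 allele, the B6 allele fraction (BAF), was compared with 0.5 by the paired test of the methods on B6 minus Cast votes. A gene was called at a Bonferroni-adjusted p under 0.01 with a pooled BAF outside 0.45 to 0.55. Of 19 members with enough votes, 5 were called, against 18.9% of the 9084 genes tested. The B6 allele was higher for *Snhg6*, *Snord34*, *Snord100* and *Snord49b*, and the Cast allele for *Snord35b*. Without lanes E and J 6 of 18 members were called, and the share of all genes for that setting is not stated here.

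*Snhg6*, the host of *Snord87*, had a pooled BAF of 0.776 over 1427 votes (adjusted p = 8.22e-05, paired test). In the embryos with at least 20 votes, the BAF ranged from 0.617 to 0.824 in 4 B6xCast, from 0.733 to 0.870 in 4 CastxB6 and from 0.622 to 0.917 in 19 heterozygous N2 embryos. The B6 allele was thus the higher in all 27 of these embryos, whichever parent it came from. The call was lost with the 16 F1 embryos alone, where the pooled BAF was 0.767 over 515 votes.

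*Snord34* had a pooled BAF of 0.874 over 8281 votes (adjusted p = 0.000337, paired test). Its F1 embryos lay between 0.817 and 0.905. In the same 16 embryos *Rpl13a*, whose exon it overlaps, lay between 0.375 and 0.419, on the opposite side of 0.5 and without overlap. Both rows were called, *Rpl13a* with a pooled BAF of 0.398.

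*Snord100*, in an intron of the ribosomal protein gene *Rps12*, had a pooled BAF of 0.655 over 1825 votes (adjusted p = 7.53e-05, paired test), and each of its 16 F1 embryos was above 0.5, from 0.597 to 0.758. *Rps12* had a BAF of 0.163 in F1 embryos over 306 votes, with a 95% Wilson interval of 0.126 to 0.209 that covers counting error only. *Snord49b* had a pooled BAF of 0.576 (adjusted p = 2.39e-05, paired test), near that of its host *2410006H16Rik* at 0.556. In heterozygous N2 embryos alone neither was called, with a pooled BAF of 0.683 for *Snord100* (adjusted p = 0.304, paired test) and of 0.564 for *Snord49b* (adjusted p = 0.135, paired test).

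*Snord35b* had the lowest BAF, 0.156 over 242821 votes (adjusted p = 2.76e-10, paired test). The F1 embryos lay between 0.059 and 0.095 in B6xCast and between 0.052 and 0.128 in CastxB6. The 45 heterozygous N2 embryos with at least 20 votes lay between 0.237 and 0.408, apart from all F1 embryos. In the 12 lanes with enough votes the BAF of *Snord35b* ran from 0.262 to 0.386, so that no lane reached the F1 values.

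A comparison of F1 with heterozygous N2 embryos by the rank-sum test, added after the data were seen, called 3 of 12 members at a q under 0.01, against 9.76% of all genes tested. The medians were 0.079 and 0.373 for *Snord35b* (q = 8.35e-07). They were 0.415 and 0.517 for *Snhg9* (q = 4.07e-06) and 0.402 and 0.509 for *Snora78* (q = 3.20e-06). Counts of *Snhg9* and *Snora78* were nearly equal. The F1 values also differed between litters of 1 cross. In CastxB6 litter 1, run on GAIIx and HiSeq, the BAF was 0.10 to 0.128 for *Snord35b* and 0.456 to 0.471 for *Snhg9*, the latter inside the N2 range of 0.366 to 0.758. In CastxB6 litter 2, run on HiSeq alone, it was 0.052 to 0.072 and 0.337 to 0.367, without overlap with litter 1. B6xCast litter 3, run on GAIIx and HiSeq, had 0.084 to 0.095 and 0.395 to 0.410. B6xCast litter 5, run in the same way, had 0.059 to 0.084 and 0.393 to 0.440. Both B6xCast litters lay inside the N2 range for *Snhg9*. The litters also differ in stage. Sequencing runs, trimmed read length and depth differ between F1 and N2 embryos and cannot be told apart from generation. *Snhg6* had medians of 0.772 and 0.771 (q = 1).

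Cast votes in B6/B6 embryos, which should have none, gave a background of 0.195% of votes over all genes. They made up 0.081% for *Snhg6*, 0.213% for *Snord35b* and 0.252% for *Snord34*. The share was higher in *Snord49b* at 1.05% (27 of 2579.5 votes) and in *Snord72* at 3.26% (12 of 368 votes). In *Snora61* it was 2.01%, which rests on 1 Cast vote of 49.8.

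Votes were not available for every abundant row. *Snord104*, *Snord65*, *Snord49a*, *Snord47*, *Snord99*, *Snora68* and *Snord22* had 0 votes in F1 embryos in spite of their reads, and *Snord15b* had 72. *Snhg4*, which was not called (adjusted p = 1, paired test), had a BAF of 0.881 over 360 votes in F1 embryos and of 0.442 over 382 votes in heterozygous N2 embryos.

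**Figure D4:**
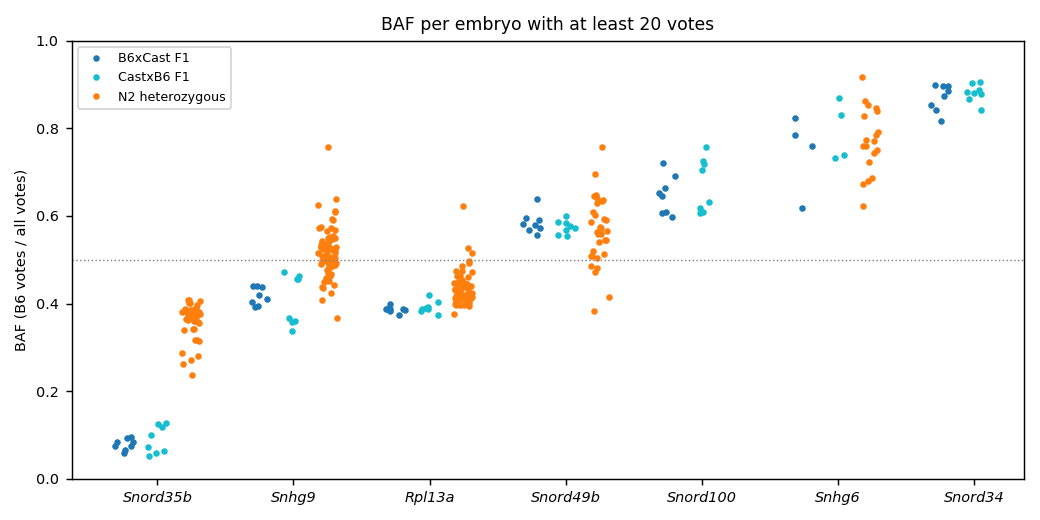
BAF per embryo with at least 20 votes, for members and hosts, in B6xCast F1 (dark blue), CastxB6 F1 (light blue) and heterozygous N2 embryos (orange), with a dotted line at 0.5. F1 embryos of *Snord35b* lie below all heterozygous N2 embryos, and *Snord34*, at 0.817 to 0.905, lies on the other side of 0.5 from *Rpl13a*, whose exon it overlaps.

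The question whether an allele acts on the level of its own gene was asked by comparing B6/Cast with B6/B6 N2 embryos, by the rank-sum test on log2(RPM + 1) after removal of lane and 15 principal components. Of 27 members tested, 5 were called at a q under 0.01, against 29.3% of 9733 genes, and all 5 were lower in heterozygotes. The same 5 were called without lanes E and J. In whole embryos, fewer cells that express a gene and less RNA per cell cannot be told apart.

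*Snhg6* ranged from 5.61 to 249.9 RPM in 72 heterozygotes, with a median of 27.9, and from 2.90 to 412 RPM in 82 B6/B6 embryos, with a median of 44.2. The genotypes overlapped widely, and the heterozygotes had the lower median in 11 of the 14 lanes with at least 3 of each. The corrected difference was -0.35 ± 0.06 (SE) on the log2 scale (q = 1.58e-06). The ratio of mean RPM gave a log2 difference of -0.64. If the B6 copy gives the same level in both genotypes, the BAF of the heterozygotes predicts -0.64.

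*Snord15b* had a median of 253.7 RPM in 66 heterozygotes and 548 RPM in 88 B6/B6 embryos, and the corrected difference was -0.59 ± 0.11 (SE, log2, q = 2.94e-07). Its host *Rps3* was lower in heterozygotes in 13 of 13 lanes, with medians of 7402 and 13120.0 RPM and a corrected difference of -0.58 ± 0.03 (SE, log2, q = 2.49e-22). The log2 ratio of means was -1.01 for *Snord15b* and -0.77 for *Rps3*. The BAF of *Rps3* in heterozygotes, 0.572, predicts -0.19.

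*Snord65* had medians of 177 RPM in 75 heterozygotes and 206 RPM in 79 B6/B6 embryos, a corrected difference of -0.16 ± 0.03 (SE, log2, q = 5.42e-06). The host *2410006H16Rik* was lower in 13 of 14 lanes and by -0.13 ± 0.02 (SE, log2, q = 4.98e-07). *Snord35a*, with medians of 6.72 and 8.19 RPM, differed by -0.30 ± 0.07 (SE, log2, q = 3.97e-05). For this row *Rpl13a* went the other way, higher in heterozygotes in 12 of 13 lanes, by 0.21 ± 0.03 (SE, log2, q = 1.32e-07). *Snord72* had medians of 2.86 and 4.18 RPM and differed by -0.26 ± 0.08 (SE, log2, q = 0.00301). With lane as the only correction the differences of *Snord65* and *Snord72* were -0.14 and -0.24 and were not called (q = 0.0565 and q = 0.0533), and neither was called with embryos of B6 or of F1 mothers alone. With no correction 1 of the 5 was called, *Snord15b*, while *Snhg6* differed by -0.61 (q = 0.0831) and *Snord35a* by -0.24 (q = 0.219).

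*Snord34*, below 5 RPM in N2 embryos and so not tested, had means of 3.10 RPM in heterozygotes and 5.04 RPM in B6/B6 embryos. It was lower in 12 of 13 lanes, and its log2 ratio of -0.70 stood beside a prediction of -0.75 from its BAF. For the called rows *Snord35a* and *Snord72* the BAF of heterozygotes predicted 0.16 and 0.03. Their log2 ratios of means were -0.32 and -0.27. *Snord35b* had means of 365 RPM in 64 heterozygotes and 232 RPM in 90 B6/B6 embryos, a log2 ratio of 0.65, while the corrected difference was -0.13 ± 0.20 (SE, q = 0.631) and was not called. The heterozygotes were the higher in 8 of 13 lanes, and the BAF of *Snord35b* in heterozygotes predicted 0.42. None of the 27 members was called for a difference of the genotype effect between mothers, in a linear model with lane (background 0.0411%), and 3 had an unadjusted p under 0.05.

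**Figure D5:**
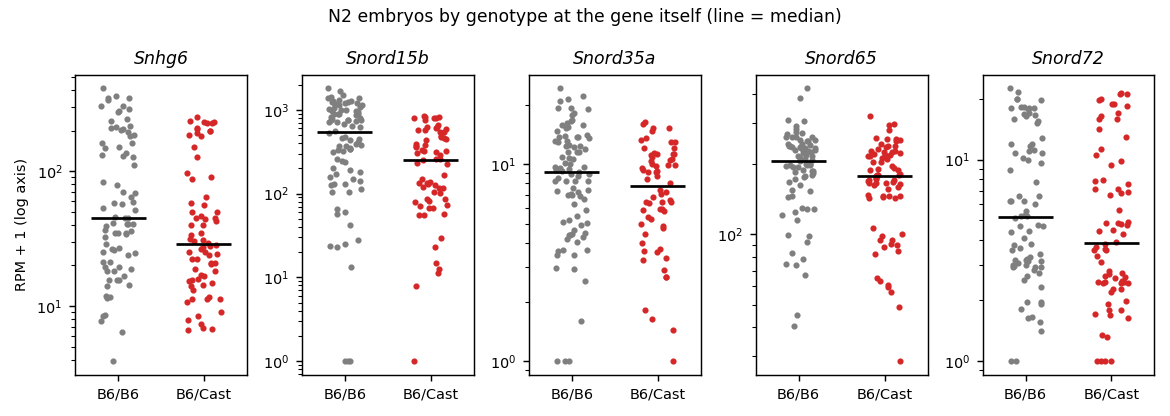
RPM + 1 on log axes, each on its own scale, for the 5 rows called by genotype at the gene itself, each point an N2 embryo (B6/B6 grey, B6/Cast red) with a line at the median. The medians of the heterozygotes are the lower in all 5 panels, for *Snord15b* 253.7 against 548 RPM, and the points of the 2 genotypes overlap.

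Embryos were staged by their somites, the segments laid down in sequence along the body axis, and 147 N2 embryos had between 42 and 57 of them. By Spearman's correlation 5 of 27 members were called at a q under 0.05, against 22% of 10007 genes. *Snord123* rose with stage, and *Snhg1*, *Snhg3*, *Snhg4* and *Snord99* fell. Without lanes E and J 11 were called, and the share of all genes for that setting is not stated here. Litters share a mother and mostly a lane, so the embryos are not independent.

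*Snord123* had a median of 43.5 RPM in 55 embryos with up to 47 somites and of 58.0 RPM in 48 embryos with 51 or more. Spearman's rho was 0.29 (permutation p = 0.00042, q = 0.00443) and Pearson's r was 0.29 (permutation p = 0.00043), or 0.26 without the 2 embryos farthest from the median stage. The sign was positive in 11 of 14 lanes, and the call held with lane regressed out of the ranks (rho = 0.30). Over B6 mothers rho was 0.45 and over F1 mothers 0.11. The relation was not called on flowcell 1 alone (q = 0.381) or with litter means (rho = 0.39, q = 0.398).

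The 4 falling rows had weaker relations. *Snhg4* had medians of 7.05 RPM in the younger and 2.75 RPM in the older of these embryos, with rho = -0.25 (permutation p = 0.00199, q = 0.0137) and r = -0.21 (permutation p = 0.00994), or -0.19 without the 2 farthest embryos. *Snhg1* had medians of 36 and 14.8 RPM, with rho = -0.21 (permutation p = 0.0104, q = 0.0467) and r = -0.17 (permutation p = 0.0411), or -0.14 without them. *Snhg3*, which shares exons with *Rcc1*, had medians of 9.92 and 6.86 RPM, with rho = -0.22 (permutation p = 0.00663, q = 0.0356) and r = -0.16 (permutation p = 0.0578), or -0.12 without them. *Snord99* had medians of 11.8 and 3.36 RPM, with rho = -0.22 (permutation p = 0.00673, q = 0.0364) and r = -0.15 (permutation p = 0.076), or -0.13 without them.

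None of these 4 kept its call with lane regressed out of the ranks, where rho lay between -0.13 and -0.01, and *Snord99* also lost it without lanes E and J (q = 0.280). Lanes K and N held the youngest embryos, from 42 somites. Their medians were 389 and 441 RPM for *Snhg1* and 47.7 and 28.8 RPM for *Snhg3*. Lanes L and M, from 47 and 49 somites, were also high, at 318 and 370 RPM and at 34.3 and 43.5 RPM. Lanes E and F, from 43 and 44 somites, were low, at 29 and 18.8 RPM and at 8.37 and 8.19 RPM. The signs were split over lanes, negative in 8 of 14 lanes for *Snhg1*, in 7 for *Snhg3* and *Snhg4* and in 6 for *Snord99*. A term for the difference in slope between mothers was called for 0 of 27 members in a linear model with lane (background 0.00999%), and 4 had an unadjusted p under 0.05.

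Whether a B6 or an F1 mother changed the level in her embryos was asked with the Mann-Whitney U test of the methods and Bonferroni adjustment. Of 27 members 3 were called at an adjusted p under 0.01, against 5.03% of 9733 genes, and all 3 were higher with an F1 mother. They lie at 2 loci, *Snord99* and *Snora61* in *Snhg12* on chromosome 4 and *Snord72* in *Rpl37* on chromosome 15.

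*Snord99* ranged from 0 to 52.5 RPM under 89 B6 mothers' embryos, with a median of 2.90, and from 0.799 to 68.4 RPM under F1 mothers, with a median of 17.2 (log2 ratio of means -1.50, adjusted p = 3.60e-05). *Snora61* had medians of 3.81 and 9.14 RPM (log2 ratio -0.91, adjusted p = 0.00504). *Snord72* had medians of 2.27 and 9.57 RPM (log2 ratio -1.30, adjusted p = 0.00283). All 3 ranges overlapped.

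The lanes divided these rows in another way than the mothers. *Snord99* had lane medians of 29.3 to 36.4 RPM in lanes D, E, F and G and at most 2.15 RPM in lanes A, B, C, H, I and J. Lane F, at 30.5 RPM, held embryos of B6 mothers, and lane C, at 2.15 RPM, embryos of F1 mothers. *Snord72* had 10.7 to 18.7 RPM in lanes D to G and at most 4.13 RPM in all others, and *Snora61* had 9.09 to 19.2 RPM in lanes D to G and at most 7.42 RPM elsewhere. Of the 4 lanes D to G, 3 held embryos of F1 mothers, and lane and mother cannot be told apart in this design. With limma voom and lane as a random block 0 of 27 members were called. An unadjusted p under 0.05 was reached by 4 members (*Snhg7*, *Snhg12*, *Snord99* and *Snhg4*) and by 1119 of all 9733 genes. The log2 differences were then -1.69 for *Snord99*, -0.85 for *Snora61* and -0.59 for *Snord72*. Without lanes E and J 0 were called by the Mann-Whitney U test, with 13 at an unadjusted p under 0.05. The log2 ratios were then -1.38 for *Snord99* (adjusted p = 0.0101, Mann-Whitney U test), -0.90 for *Snora61* and -0.92 for *Snord72*. Over all embryos edgeR called 4 members and DESeq2 6. The shares of all genes in these settings are not stated here, so the counts are not read as a trait of the members.

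Between the F1 crosses, edgeR's quasi-likelihood test called 3 of 27 members at a false discovery rate under 0.05, against 29% of 9728 genes. All 3 were higher in B6xCast. *Snord15a* had 36.3 to 77.5 RPM in B6xCast and 10.3 to 28.3 RPM in CastxB6 embryos, without overlap, a log2 difference of 1.55 (edgeR adjusted p = 0.000304). Its neighbour in *Rps3*, *Snord15b*, differed by -0.08 (edgeR adjusted p = 0.740).

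*Snhg8* had 107 to 128 RPM in B6xCast and 69.2 to 104 RPM in CastxB6 embryos, also without overlap, and a log2 difference of 0.34 (edgeR adjusted p = 0.00815). *Snhg11*, a host gene known from the nervous system, had a log2 difference of 1.03 (edgeR adjusted p = 0.00443). Its B6xCast litters had medians of 66.8 RPM at 58 to 63 somites and 25.4 RPM at 48 to 50 somites, and its CastxB6 litters 16.4 RPM at 41 to 43 somites and 18.2 RPM at 46 to 48 somites. Between the 2 litters nearest in stage the log2 difference of *Snhg11* was 0.46 (edgeR adjusted p = 0.0453), of *Snhg8* 0.40 (edgeR adjusted p = 0.0344) and of *Snord15a* 2.08 (edgeR adjusted p = 0.000547). In these litters *Snhg3*, *Snord72* and *Snhg1* were also called, lower in B6xCast by 0.73, 0.95 and 1.11 on the log2 scale. Each F1 cross consisted of 2 litters, and litter, stage, cross direction and sequencing run cannot be told apart in full, since CastxB6 litter 2 had no GAIIx run and the other 3 litters did. The share of all genes called is stated here for the fit of all F1 embryos only. Without the 2 CastxB6 embryos that stood apart, 6 members were called, all higher in B6xCast. These were the 3 above with log2 differences of 0.98 for *Snhg11*, 0.25 for *Snhg8* and 1.56 for *Snord15a*, and *Snhg7* at 1.71 (edgeR adjusted p = 0.00283), *Snord99* at 1.40 (edgeR adjusted p = 0.00614) and *Snora61* at 0.69 (edgeR adjusted p = 0.0410).

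*Snord104* and *Snhg9* differed between litters of 1 cross. In CastxB6 litter 1 *Snord104* had 336 to 407 RPM, below the 692 to 990 RPM of litter 2. *Snhg9* had 44.2 to 99.3 RPM in litter 1 and 179 to 325 RPM in litter 2. The ranges of these litters did not overlap for either row. The litters also differed in stage and in sequencing runs, GAIIx with HiSeq for litter 1 and HiSeq alone for litter 2. Neither row was called between crosses (edgeR adjusted p = 0.593 and 0.406).

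Parent-of-origin expression was tested with binomial tests of votes in each cross, and 0 of 23 members were called, against 0.405% of 11598 genes. At an unadjusted p under 0.05 in both crosses, 1 member had opposite higher alleles, *Snhg10*, as had 123 of the 11598 genes. Its mean BAF was 0.38 ± 0.11 (SD, n = 8) in B6xCast and 0.53 ± 0.15 (SD, n = 8) in CastxB6 embryos, a difference with p = 0.0421 in a two-sided exact permutation test over embryos and 0.416 after Benjamini-Hochberg adjustment over the 13 members compared. BAF against somite number was called for 0 of 8 members by Spearman's correlation (background 0.299%). An unadjusted p under 0.05 was reached by 1 member, *Snhg9*, and by 297 of 3342 genes.

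The proteins of the snoRNA particles were taken from lists of known components. Of the 4 box C/D proteins, *Nop56*, a core scaffold, was lower in B6/Cast embryos by 0.76 on the log2 scale (-0.76 ± 0.05 SE, q = 4.95e-21), and the other 3 were not called by genotype. *Nop58*, the second scaffold, fell with stage (rho = -0.22, q = 0.0371). Of the box H/ACA proteins, *Nhp2* fell with stage (rho = -0.45, q = 5.95e-07), as did *Gar1* (rho = -0.23, q = 0.0264), so that 2 of 4 tested were called and both fell. *Nhp2* was also lower in heterozygotes (-0.09 ± 0.03 SE, log2, q = 0.000987). *Nop10* was higher with an F1 mother (log2 ratio of means -1.04, adjusted p = 0.000881), as were the factor *Parn* (-0.80, adjusted p = 0.00109) and the hosts *Rpl32* (-1.09, adjusted p = 0.000478) and *Rpl37*, host of *Snord72* (-0.69, adjusted p = 0.00646). For these genes too lane and mother cannot be told apart. The mother test called 1 of 3 box H/ACA proteins, 1 of 13 assembly and processing factors and 2 of 34 hosts. Of the 4 box C/D proteins it called 0. Over all genes the share was 5.03%.

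Among 13 assembly and processing factors tested, stage called *Parn* and *Nolc1*, both lower in older embryos (rho = -0.22 and -0.21), and genotype called *Pih1d1* and *Naf1* higher and *Nolc1* lower in heterozygotes. *Nolc1*, a nucleolar phosphoprotein that binds snoRNA particles, also had a BAF of 0.589 (adjusted p = 5.03e-31, paired test). Of the 34 host genes outside the *Snhg* names that were tested for genotype, 5 were higher and 7 lower in heterozygotes, and for stage 1 rose and 6 fell, beside 29.3% and 22% called over all genes. The same shares stand beside the genotype and stage counts of the particle proteins and factors above. The median effect of these hosts was 0.00 by genotype, as over all genes, and their median rho with stage was -0.08 against -0.02 over all genes. Of 26 hosts tested for allele bias, 7 favoured B6 and 5 Cast, beside the 18.9% called over all genes. Parent of origin called 4 of 29 hosts, *Meg3* and *Rian* with the maternal and *Snrpn* and *Snurf* with the paternal allele higher, all from known imprinted regions. *Snrpn* and *Snurf* had 65615 and 65572 reads in F1 embryos and were in effect 1 measurement. Nonsense-mediated decay degrades many spliced *Snhg* transcripts. Of its factors genotype called 1 of 6 tested, *Smg6*, as higher in heterozygotes, beside 29.3% of all genes. Stage called 1 of 7, *Upf2*, as lower in older embryos, beside 22% of all genes.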

How the data were processed

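Per the labels, 3SEQ libraries were made from poly(A)-selected RNA of 16 F1 embryos (2 sequencing runs each, deposited as 1 value) and of N2 embryos barcoded and pooled by lane. The authors trimmed poly(A) stretches, mapped reads with Bowtie2 to mm9 and to a Cast version of it, removed ambiguous reads and counted reads on the exons of RefSeq genes. The deposited counts are whole numbers of reads per gene without normalization. The deposited allele votes are estimated counts that need not be whole, in which each SNP of a read gets an equal part of 1 vote. The authors' genotypes, from a hidden Markov model, were used as deposited codes. Whether counting used strand is not given in the sources used here. Groups, litters, lanes and somites came from the labels, and 14 N2 columns without a mother label or a genotype were not used.

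RPM was computed from the total on genes. Members and gene lists were chosen with earlier results of these data known. Tests ran over all genes with the paired test on votes, the rank-sum, Mann-Whitney U, Spearman and binomial tests of the methods (SciPy 1.17.1), and edgeR 4.0.16 between F1 crosses, with DESeq2 1.42.0 and limma 3.58.1 as alternatives. PEER was replaced by principal components, for which the rank-sum test deducts no degrees of freedom, and retrotransposed copies were not removed. The binomial test covers counting error only. The genotype and stage terms by mother and the F1 against N2 comparison were added after the data were seen. Named genes are members of at least 5 RPM or called, their hosts, and at most 4 per direction of each list by smallest p. *Snord34*, *Snord100* and the litters of *Snord104* and *Snhg9* are described with values chosen after they were seen. Each test other than these added ones was checked on simulated data. The simulated embryos had no lane or litter effects, so this check cannot show how such effects bear on the calls. Permutation p-values used 100000 resamples. Embryos are the replicates, and p-values measure the spread between embryos that share litters and lanes. Sequences came from NCBIM37 for the 95 members with a GENCODE vM1 position. An item is not reported here.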

Additional observations from a re-analysis of the deposited data

Results flagged for a closer look

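Of 60 groups of 8 F1 embryos examined (30 rows in 2 crosses), 3 had 1 embryo far from the others by Dixon's criterion, where chance flags about 1 in 20 groups. This criterion looks for 1 embryo and does not find a pair such as the 2 CastxB6 embryos that stood apart together in 8 rows. *Snord87* had 6.89 RPM in 1 CastxB6 embryo of litter 2, and 0.463 to 3.03 RPM in the other 7. *Snord47* had 32.6 RPM in 1 B6xCast embryo of litter 3, against 11.5 to 20.2 RPM when its cross is taken without it. *Snord34* had 55.4 RPM in 1 CastxB6 embryo of litter 2, and 17.4 to 35.3 RPM in the rest.

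The BAF of 3 members differed between F1 and heterozygous N2 embryos by the rank-sum test. The difference of medians was -0.294 for *Snord35b* (q = 8.35e-07), -0.102 for *Snhg9* (q = 4.07e-06) and -0.107 for *Snora78* (q = 3.20e-06), whose counts are nearly those of *Snhg9*. For *Snord35b* the median was 0.061 in CastxB6 litter 2, run on HiSeq alone. In the litters also run on GAIIx it was 0.122 in CastxB6 litter 1, 0.094 in B6xCast litter 3 and 0.074 in B6xCast litter 5. For *Snhg9* these medians were 0.359, 0.460, 0.404 and 0.438 in the same order. The N2 medians were 0.373 and 0.517. The part of sequencing run, stage, trimmed read length and depth was not tested.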

How the results depend on the processing

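Counts of members called moved by over 1.5 times under these alternatives. For allele bias, 5 became 3 with heterozygous N2 embryos only. For own genotype, 5 became 3 with lane only, 1 with no correction, 9 of 38 tested at a mean of 1 RPM, 3 with B6 mothers only and 2 with F1 mothers only. For stage, 5 became 2 with lane regressed out, 0 with litter means (1 at an unadjusted p under 0.05), 12 with B6 mothers only, 3 on flowcell 1, 12 on flowcell 2 and 11 without lanes E and J, a setting chosen after seeing the data. For the mother, 3 became 0 with litter means (5 at an unadjusted p under 0.05), 0 with lane means (0), 1 on flowcell 1, 0 on flowcell 2 (14), 7 with Benjamini-Hochberg adjustment, 6 with DESeq2, 0 with limma voom with lane as a random block (4) and 0 without lanes E and J (13). For the F1 crosses, 3 became 6 with the stage-matched litters, 5 with filterByExpr, 6 with no filter on low counts and 6 without CastxB6 embryos 1-1 and 2-3, also chosen after seeing the data. Shares of all genes are not stated beside these counts, so the counts do not show a change particular to the members. The cause of these changes was not tested. The direction reversed in 1 case, *Snhg3* with stage, where rho was 0.012 with F1 mothers only. Of 176 values under alternatives, 124 kept direction and side of the threshold, and 51 kept the direction but not the call. No paired analysis was possible because embryo numbers are given within litters and do not tie embryos of different crosses. Depth limits rows of a few RPM in N2 embryos, where 1 read is worth up to 4.08 RPM, and BAF of rows with few votes.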
